A study of Mus musculus with 32 samples.

Results

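*Ido2* and 8 other genes of the tryptophan to kynurenine pathway were followed through the amygdala and hippocampus of mice lacking the histone demethylase KDM5C, mice with a single copy of the histone methyltransferase gene *Kmt2a*, and mice with both mutations. The 9 genes were *Ido2*, *Ido1*, *Tdo2*, *Afmid*, *Kmo*, *Kynu*, *Aadat*, *Haao* and *Qprt*, out of 53715 genes in the count tables, and all 9 were found there by their GENCODE M21 symbols. *Ido2* was chosen by its measured counts, which were high in the hippocampus of mice without *Kdm5c*, so its difference between genotypes with and without *Kdm5c* is given as a description with no test. The other 8 genes are in the list for their place in the pathway.

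IDO1, IDO2 and TDO2 catalyse the first step of the pathway, the opening of the indole ring of tryptophan to N-formylkynurenine, which the formamidase AFMID turns into kynurenine. AADAT turns kynurenine into kynurenic acid, a blocker of NMDA-type glutamate receptors, whereas KMO, KYNU and HAAO lead towards quinolinic acid, which activates the same receptors and which QPRT consumes on the way to NAD. In the brain, KMO is known as an enzyme of microglia, and *Ido1* is known as a gene that interferon-gamma induces.

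The data were 32 mRNA-seq libraries from 2 brain regions, amygdala and hippocampus, of 16 adult males, with 4 mice in each of 4 genotypes. All mice were F1 hybrids (129xB6) of a 129S1/SvImJ *Kmt2a*+/- father and a C57BL/6J *Kdm5c*+/- mother, so that wildtype (WT), *Kmt2a*-HET (*Kmt2a*+/-), *Kdm5c*-KO (*Kdm5c*-/y) and double-mutant (DM: *Kmt2a*+/-, *Kdm5c*-/y) males had the same hybrid background. Both mutations are germline, so every cell of the animal carries them, and each brain region was measured as bulk tissue. The study asked whether altering one of these opposing enzymes offsets a mutation of the other, and the comparisons here set each single mutant and DM against WT and against each other.

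The libraries of the amygdala held 19215503 to 26033615 gene counts and those of the hippocampus 19322262 to 27798980. Whole-gene *Kdm5c* counts include exons outside the deletion and were a weak check of the labels: in the hippocampus they were 1145.4 to 1430.4 normalised counts in the 8 libraries without a working gene and 1425.6 to 1888.3 in the other 8, and in the amygdala 1225.4 to 1433.9 against 1227.4 to 2026.0. Libraries of 2 mice stood apart, in the striatal markers of a hippocampal library or in liver markers. *Kdm5c*-KO hippocampus replicate 1 had a summed level of 10 striatal marker genes of 17061 normalised counts against 2718 to 4735 in the other 15 hippocampal libraries, and its values are named below wherever a result rests on it. Both libraries of *Kmt2a*-HET replicate 2 had high liver markers, with values given beside *Haao*. Other libraries differed in tissue markers too. The summed level of 7 choroid plexus markers, described below, reached 42373 in a DM amygdala library, against at most 1710 in the other genotypes. In the hippocampus that sum ran from 881 to 100927, and the striatal sum in the amygdala ran from 10179 to 64839.

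*Ido2* lies on the minus strand of chromosome 8 at chr8:24531892-24576333 (GRCm38/mm10, GENCODE M21), and *Ido1* lies 7803 bp upstream of it. The annotation gives *Ido2* 4 transcripts. Ido2-201 is the coding one, with 10 exons and 1215 coding bp in 2452 bp. Ido2-204 is a non-coding processed transcript of 9 exons and 3205 bp that begins 21736 bp downstream of the start of Ido2-201, inside the gene. It takes in 8 exon positions of Ido2-201, from the third exon on, and lacks its first exon (chr8:24576150-24576333) and its second exon (chr8:24558148-24558243). Ido2-203 is a retained-intron transcript of 3 exons at the 3′ end of the gene, and Ido2-202 is a non-coding transcript of 3 exons.

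The junctions into the exon that begins at position 24553840 show where both long transcripts part. They are printed because most of the *Ido2* counts described below were assigned to Ido2-204. Each run is read 5′ to 3′ from the GENCODE M21 transcripts, with 30 bases of the upstream exon in lower case and the first 30 bases of the shared exon in capitals (chr8:24553811-24553840, minus strand). The upstream bases lie at chr8:24558148-24558177 for Ido2-201 and at chr8:24554241-24554270 for Ido2-204.
Ido2-201: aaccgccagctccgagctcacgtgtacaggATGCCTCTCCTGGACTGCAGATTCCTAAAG
Ido2-204: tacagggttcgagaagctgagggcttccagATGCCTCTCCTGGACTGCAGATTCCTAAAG

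In the hippocampus, *Ido2* was low in mice with *Kdm5c* and several-fold higher in mice without it, while in the amygdala the 4 genotypes overlapped. Counts were normalised for library depth by DESeq2 size factors within a region. The hippocampal levels were 43.9, 11.5, 43.3 and 23.8 normalised counts in the 4 WT libraries and 19.7, 36.2, 30.8 and 23.3 in the 4 *Kmt2a*-HET libraries. They were 70.6, 123.4, 123.6 and 129.7 in the *Kdm5c*-KO libraries and 211.5, 201.7, 185.7 and 167.8 in the DM libraries. The 8 libraries without *Kdm5c* lay above the 8 others with no overlap (70.6 to 211.5 against 11.5 to 43.9), and the DM libraries lay above all *Kdm5c*-KO libraries. The group means were 30.6 ± 15.8 (SD, n = 4) in WT mice, 27.5 ± 7.40 in *Kmt2a*-HET mice, 112 ± 27.7 in *Kdm5c*-KO mice and 192 ± 19.1 in DM.

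As a description, the fitted log2 fold change of *Ido2* in the hippocampus was 1.89 (SE 0.31) in *Kdm5c*-KO mice and 2.67 (SE 0.30) in DM against WT, and 2.80 in DM against *Kmt2a*-HET. Over all 8 libraries without *Kdm5c* against all 8 with it, in a fit with a term for each mutation, the log2 fold change was 2.34. *Kdm5c*-KO replicate 1, the library with the high striatal markers, had the lowest *Ido2* of its group, and without it the *Kdm5c*-KO value was 2.06 and the 8 against 8 value 2.45. In bulk tissue, a change in the number of cells of a type and a change of the RNA within each cell cannot be told apart, here or in any comparison below. Markers of the choroid plexus, the secretory tissue that projects into the brain ventricles, moved with the loss of *Kdm5c* in the hippocampus. DESeq2 called 5 of 7 higher (edgeR 4 of 7), where 2.66% of all genes were called. Their summed level was 881 to 24913 normalised counts in WT, 900 to 2556 in the *Kmt2a*-HET group, 1315 to 100927 in the *Kdm5c*-KO group and 1077 to 26555 in DM, with no marker at 0 in any group. Over the 16 hippocampal libraries Pearson's r of *Ido2* with this sum was 0.348 and Spearman's rho 0.412, and r was 0.315 without the 2 farthest libraries. Choroid plexus was not alone in this: r was 0.302 with microglial markers, 0.219 with markers of the hippocampal CA fields and -0.201 with dentate gyrus markers. Without the 2 farthest libraries these were 0.293, -0.164 and -0.079. The part of these markers in the *Ido2* values was not tested.

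In the amygdala, *Ido2* had 15.8, 31.1, 31.3 and 27.7 normalised counts in WT mice and 31.2, 36.1, 29.3 and 25.0 in *Kmt2a*-HET mice. The *Kdm5c*-KO libraries had 27.3, 37.3, 43.5 and 24.3, and the DM libraries 27.6, 32.8, 28.8 and 33.4. All 4 groups overlapped, with log2 fold changes against WT of 0.33 in *Kdm5c*-KO mice and 0.21 in DM. The difference between the regions in the mutant change was 1.56 (log2) for *Kdm5c*-KO and 2.47 for DM, again as a description, since the hippocampal values led to the choice of the gene.

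**Figure D1:**
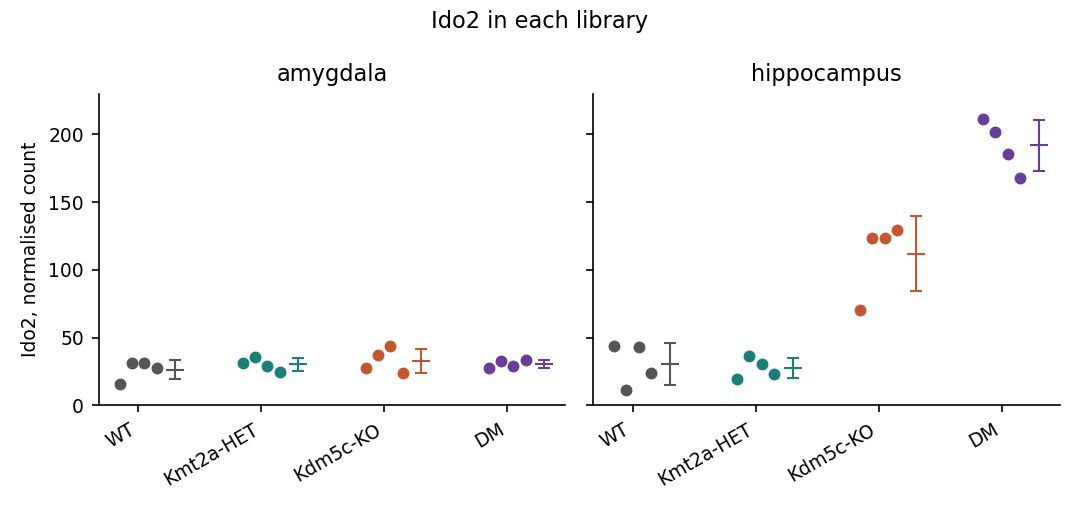
*Ido2* in each of the 32 libraries, in normalised counts (normalised within a region), by genotype, with the amygdala and the hippocampus side by side. Dots are libraries and bars show mean ± SD of 4. The hippocampal *Kdm5c*-KO (70.6 to 129.7) and DM (167.8 to 211.5) libraries lie above every library with *Kdm5c* (11.5 to 43.9), and the amygdala groups overlap.

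The plot of *Ido2* by library also shows the comparisons between genotypes with the same *Kdm5c* status. *Kmt2a* heterozygosity alone gave no detected change in *Ido2*: the log2 fold change of *Kmt2a*-HET against WT was 0.20 in the amygdala (95% interval -0.37 to 0.77, DESeq2 p-adj = 0.998) and -0.13 in the hippocampus (-0.79 to 0.52, p-adj = 0.996). Between the DM and *Kdm5c*-KO hippocampus, whose high values are those for which *Ido2* was chosen, the difference is given without a test: the groups did not overlap, and it was 0.78 (SE 0.28), or 0.61 without *Kdm5c*-KO replicate 1. With spike-in RNA in place of the genes as the depth scale the difference was -0.07, on a scale where the median of all genes was -0.72, so that *Ido2* stood 0.65 above that median. In the amygdala the DM and *Kdm5c*-KO difference was -0.12 (p-adj = 1).

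In every genotype, summed over its libraries, most of the hippocampal *Ido2* counts were assigned outside the coding transcript. Ido2-204 had 18.1, 9.0, 37.0 and 13.4 normalised counts in the WT hippocampus and 4.2, 36.2, 16.6 and 0.0 in *Kmt2a*-HET mice, against 58.6, 74.8, 101.6 and 97.2 in *Kdm5c*-KO mice and 173.9, 162.3, 143.6 and 135.4 in DM. The retained-intron transcript Ido2-203 had 0.0 to 6.3 in the 8 libraries with *Kdm5c* and 12 to 42.1 in the 8 without it. For both transcripts the libraries without *Kdm5c* lay above those with it, with no overlap.

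The coding transcript showed no such rise, and its values with and without *Kdm5c* overlapped. Ido2-201 had 24.6, 2.5, 0.0 and 10.4 normalised counts in the WT hippocampus and 12.6, 0.0, 8.4 and 20.9 in *Kmt2a*-HET mice, then 0.0, 17.4, 0.0 and 3.9 in *Kdm5c*-KO mice, and it was listed at 0.0 in all 4 DM libraries. Of all *Ido2* counts in the 8 hippocampal libraries without *Kdm5c*, 78.03% were assigned to Ido2-204, 20.14% to Ido2-203, 1.75% to Ido2-201 and 0.08% to Ido2-202. In the 8 hippocampal libraries with *Kdm5c* the shares were 57.87% for Ido2-204, 6.41% for Ido2-203 and 34.17% for Ido2-201, and in the 16 amygdala libraries 67.99%, 1.95% and 25.75%. Within the amygdala the share of Ido2-201 was 29.27% in WT mice, 35.58% in *Kmt2a*-HET mice and 30.01% in *Kdm5c*-KO mice but 8.39% in DM, where it had 0.0, 2.6, 4.5 and 3.2 normalised counts, so that a low coding share was not confined to the hippocampus. These shares rest on few counts where the gene is low, and 4 transcripts with shared exons compete for each read pair.

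The parts of the gene that can tell the transcripts apart are short. Ido2-204 alone covers chr8:24531892-24532453 (562 bp, the 3′ end), chr8:24553607-24553720 (114 bp) and chr8:24554241-24554597 (357 bp, its first exon) when it is set against Ido2-201. Ido2-201 alone covers its first 2 exons (184 bp and 96 bp), and Ido2-203 differs from Ido2-204 by chr8:24540646-24540796 (151 bp). The tables do not say on which of these stretches the assigned reads fell.

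**Figure D2:**
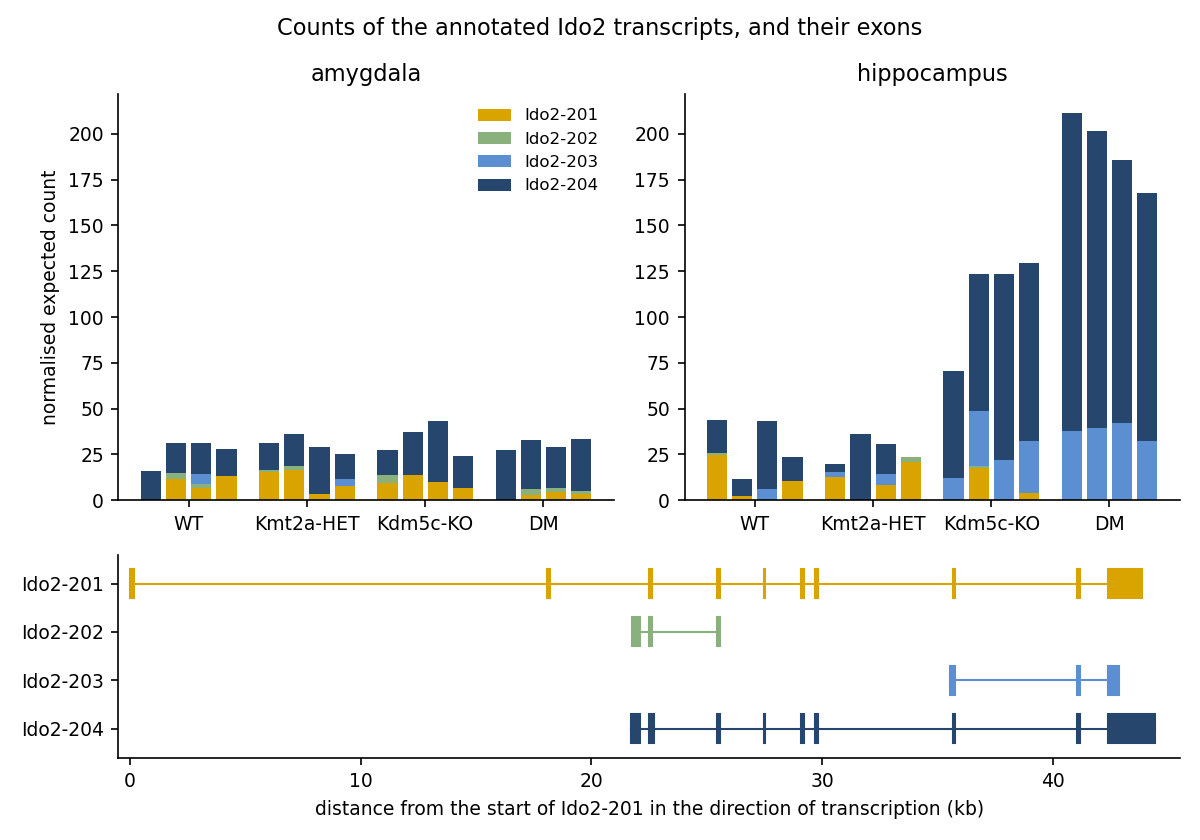
Normalised counts of the 4 annotated *Ido2* transcripts in each library, stacked, with a map of their exons by distance in kb from the start of Ido2-201. Ido2-204 and Ido2-203 make up nearly all of the bars of the hippocampal *Kdm5c*-KO and DM libraries (78.03% and 20.14%), and Ido2-204 begins 21736 bp downstream of the start of the coding transcript, inside it.

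The plot of stacked transcripts also shows Ido2-204 as the leading transcript of the amygdala in every genotype, summed over its 4 libraries. It had 13.4 to 33.7 normalised counts in single libraries, and in *Kmt2a*-HET replicate 1 Ido2-201 was ahead of it (15.5 against 14.8). Per transcript length, as TPM (counts per length, scaled to one total in every library) computed from the deposited transcript counts, the level of *Ido2* in the hippocampus was 1.26 in WT mice, 1.32 in *Kmt2a*-HET mice, 5.89 in *Kdm5c*-KO mice and 9.77 in DM, and in the amygdala 1.28, 1.28, 1.34 and 1.30. On the same scale in WT mice, the order in the amygdala was *Afmid* (4.95), *Ido1* (3.17), *Ido2* (1.28), *Qprt* (0.479), *Kynu* (0.377), *Tdo2* (0.299), *Aadat* (0.273), *Haao* (0.252) and *Kmo* (0.184), and the libraries of each neighbouring pair overlapped. In the WT hippocampus the order was *Tdo2* (4.43), *Afmid* (1.93), *Ido2* (1.26), *Qprt* (0.475), *Ido1* (0.258), *Aadat* (0.234), *Haao* (0.184), *Kmo* (0.159) and *Kynu* (0.0409), where *Tdo2* and *Afmid* did not overlap and every other neighbouring pair did.

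With the threshold of p-adj under 0.1 over all genes, the loss of *Kdm5c* changed 1 of the other 8 pathway genes, *Kmo* in the amygdala. *Kmo*, the kynurenine monooxygenase, had raw counts of 6, 7, 4 and 7 in WT mice and 12, 9, 3 and 13 in *Kmt2a*-HET mice, against 0, 0, 3 and 2 in *Kdm5c*-KO mice and 5, 1, 2 and 1 in DM. The groups overlapped by a few counts. The mean was 7.38 ± 3.24 normalised counts (SD, n = 8) with *Kdm5c* and 1.74 ± 1.64 without it, and the 8 against 8 log2 fold change was -2.08 (SE 0.59, DESeq2 p-adj = 0.0312), in a comparison where 1.68% of all genes tested were called. edgeR did not call it (p-adj = 0.142), spike-in scaling did not (-2.39, p-adj = 0.345), and neither did the fit without *Kmt2a*-HET replicate 4 (p-adj = 0.123). Without *Kmt2a*-HET replicate 2, a mouse with high liver markers, it was called (-2.05, p-adj = 0.0824).

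In the hippocampus *Kmo* had 4, 1, 8 and 2 counts in WT mice, 2, 12, 2 and 1 in *Kmt2a*-HET mice, 2, 0, 0 and 2 in *Kdm5c*-KO mice and 1, 2, 1 and 4 in DM. These values overlapped, with a log2 difference of -1.61 (p-adj = 0.462). Of 10 microglial marker genes DESeq2 and edgeR called 0 without *Kdm5c* in the amygdala (1 at an unadjusted p under 0.05 by each), and their summed level was 8269 to 14451 normalised counts in WT mice, 9217 to 10614 in *Kmt2a*-HET mice, 8422 to 10530 in *Kdm5c*-KO mice and 9418 to 10535 in DM, with no marker at 0 in any group. *Kmo* overlaps *Fh1*, which lies on the opposite strand.

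*Ido1*, the neighbour of *Ido2* and the better known of the tryptophan dioxygenase pair, had its higher counts in the amygdala libraries, with a wide spread among mice. It had 13.8, 43.7, 45.3 and 87.0 normalised counts in WT mice, 54.6, 45.2, 31.0 and 30.6 in *Kmt2a*-HET mice, 124.7, 57.8, 14.5 and 111.0 in *Kdm5c*-KO mice and 99.4, 144.9, 83.6 and 62.5 in DM. The 8 libraries without *Kdm5c* averaged 87.3 ± 41.8 against 43.9 ± 21.5, and the 2 sets overlapped widely. The 8 against 8 log2 difference of *Ido1* in the amygdala was 0.99 (SE 0.36, unadjusted p = 0.00599, p-adj = 0.223), which did not pass. It passed without WT replicate 4 (p-adj = 0.0314) or without *Kdm5c*-KO replicate 3 (p-adj = 0.0077). DM against *Kmt2a*-HET gave 1.28 (p-adj = 0.462), or p-adj = 0.0032 when only those 2 groups were fitted.

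Across the 16 amygdala libraries, *Ido1* moved with a set of 10 striatal marker genes, a list added after the data were seen. Pearson's r between log2(*Ido1* + 1) and log2 of their summed level + 1 was 0.945 and Spearman's rho 0.941 (n = 16 libraries, which share the normalisation and span 4 genotypes), and r was 0.913 without the 2 libraries farthest from the median. The summed level ran from 16711 to 63340 in WT mice, 22368 to 48289 in *Kmt2a*-HET mice, 10179 to 62256 in *Kdm5c*-KO mice and 35176 to 64839 in DM, with no marker at 0 in any group. The highest WT sum was that of replicate 4 and the lowest *Kdm5c*-KO sum that of replicate 3. These are the libraries without which *Ido1* passed in the 8 against 8 comparison. DESeq2 and edgeR called 0 of the 10 in the 8 against 8 comparison of the amygdala (2 at an unadjusted p under 0.05 by each), and their median log2 fold change was 0.43 against -0.01 for all genes. The part of these markers in the *Ido1* values was not tested. With the sum of 10 microglial markers r was -0.164 and rho 0.174, but r was 0.63 without the 2 libraries farthest from the median of that sum, so the value over all 16 rests on those 2. With 7 endothelial markers r was 0.051 and rho 0.024, and r was -0.153 without 2 libraries.

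In the hippocampus *Ido1* was at 0.0 to 7.4 normalised counts in 15 libraries and at 26.1 in *Kdm5c*-KO replicate 1, the library with the high striatal markers. The *Ido1* difference of *Kdm5c*-KO from WT in the hippocampus was 0.79 with that library and -2.69 without it (p-adj = 0.980 and 0.915). No direction can be given there.

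**Figure D3:**
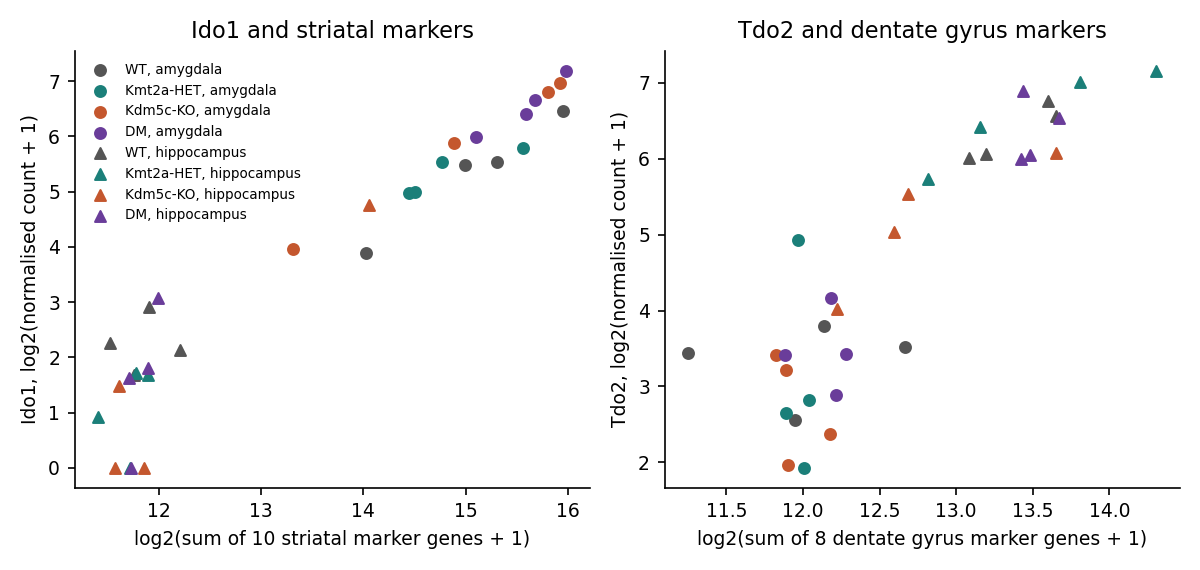
Left, log2(*Ido1* + 1) against log2(summed level of 10 striatal markers + 1). Right, log2(*Tdo2* + 1) against log2(summed level of 8 dentate gyrus markers + 1). Each point is a library (normalised counts), coloured by genotype, with circles for the amygdala and triangles for the hippocampus. *Ido1* rises with the striatal sum over the amygdala libraries (r = 0.945, n = 16), and *Tdo2* with the dentate sum over the hippocampal libraries (r = 0.896, n = 16).

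*Tdo2*, the third enzyme of the first step, had its higher counts in the hippocampal libraries. There it moved with markers of the dentate gyrus, as the plot of both genes against marker sums shows. It had 108.0, 93.9, 66.0 and 63.6 normalised counts in WT mice, 128.3, 84.9, 52.2 and 142.3 in *Kmt2a*-HET mice, 15.2, 66.7, 31.7 and 45.4 in *Kdm5c*-KO mice and 65.1, 118.4, 63.1 and 91.7 in DM. The *Kdm5c*-KO libraries were the lowest group, with 1 of 4 inside the WT range and the DM libraries around the WT level. *Kdm5c*-KO against WT gave a log2 difference of -1.05 (SE 0.38, unadjusted p = 0.00584, p-adj = 0.263) and DM against *Kdm5c*-KO 1.08 (p-adj = 0.788), and neither passed. Without *Kdm5c*-KO replicate 2 they were called (p-adj = 0.0347 and 0.0529). Without *Kdm5c*-KO replicate 1, which had the lowest *Tdo2*, they were -0.79 and 0.82 (p-adj = 0.754 and 1). With spike-in scaling over all libraries they were -0.59 and 0.22, where the medians of all genes were 0.19 and -0.72.

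Over the 16 hippocampal libraries Pearson's r of *Tdo2* with the summed level of 8 dentate gyrus markers was 0.896, Spearman's rho was 0.868, and r was 0.830 without the 2 farthest libraries. The summed dentate level was 8674 to 12856 normalised counts in WT mice, 7207 to 20267 in *Kmt2a*-HET mice, 4778 to 12876 in *Kdm5c*-KO mice and 10997 to 13046 in DM, with no marker at 0 in any group. In *Kdm5c*-KO against WT 1 of the 8 markers was lower (*Npnt*, log2 fold change -0.96, p-adj = 0.0691), and edgeR called 0 of 8, with 4 at an unadjusted p under 0.05. Their part in the *Tdo2* values was not tested. In the amygdala *Tdo2* was at 2.8 to 29.4 normalised counts.

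*Afmid*, the formamidase of the second step, had the highest level per length of the pathway genes in the WT amygdala. In the hippocampus it had 38.2, 34.5, 31.4 and 46.7 normalised counts in WT mice, 23.0, 28.3, 28 and 40.5 in *Kmt2a*-HET mice, 90.1, 36.0, 46.5 and 64.4 in *Kdm5c*-KO mice and 25.4, 18.5, 35.0 and 32.3 in DM. Here the *Kdm5c*-KO libraries were the highest group, and their top value came from replicate 1, which stood apart. DM lay below *Kdm5c*-KO with no overlap. The log2 difference was -1.09 (unadjusted p = 0.0006, p-adj = 0.426), and -0.82 (p-adj = 1) without *Kdm5c*-KO replicate 1, and it did pass without *Kdm5c*-KO replicate 2 (p-adj = 0.0312). With spike-in scaling it was -1.72, where the median of all genes was -0.72. The amygdala libraries held 53.7 to 115.2 in every genotype together. *Afmid* shares its strand with the overlapping gene *Gm20708*, so reads could be split between the 2.

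The enzymes towards quinolinic acid and NAD were at the edge of what this depth can measure. *Haao*, which oxidises 3-hydroxyanthranilic acid, was higher in mice with a single *Kmt2a* copy in both regions without passing the threshold. Its hippocampal counts were 2, 4, 0 and 4 in WT mice and 3, 6, 2 and 3 in *Kdm5c*-KO mice, against 8, 23, 4 and 8 in *Kmt2a*-HET mice and 9, 9, 7 and 19 in DM. Its amygdala counts were 4, 6, 0 and 4 in WT mice and 6, 4, 4 and 3 in *Kdm5c*-KO mice, against 7, 13, 15 and 8 in *Kmt2a*-HET mice and 6, 16, 10 and 7 in DM. The 2 sets of 8 overlapped in each region by a few counts.

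The *Kmt2a* term of the additive fit, a comparison added after the data were seen, gave *Haao* a log2 difference of 1.94 in the hippocampus (95% interval 0.92 to 2.97, unadjusted p = 0.000211, p-adj = 0.142) and 1.33 in the amygdala (0.48 to 2.18, unadjusted p = 0.00217, p-adj = 1). The hippocampal difference was called without *Kmt2a*-HET replicate 3 (p-adj = 0.0152), without *Kdm5c*-KO replicate 2 (0.0582) or without DM replicate 1 (0.0807). *Haao* is also a gene of the liver, and *Kmt2a*-HET replicate 2, which had the highest *Haao* level in each region (14.7 and 26.0 normalised counts), stood apart in the summed level of 6 liver markers. That sum was 2072 in its amygdala library, against 29 to 466 in the other 15, and 3726 in its hippocampal library, against 14 to 594. In *Kmt2a*-HET against WT the 6 markers had a median log2 difference of 1.79 for the amygdala (-0.04 over all genes) and 1.57 for the hippocampus (0.03), DESeq2 and edgeR called 0 of them (3 and 0 at an unadjusted p under 0.05 by each), and no liver marker was at 0 in any group. Without this mouse the *Haao* difference was 1.60 in the hippocampus (p-adj = 0.269) and 1.22 in the amygdala (p-adj = 1). Across the 16 libraries of a region, which share the normalisation, r between log2(*Haao* + 1) and log2 of the liver sum + 1 was 0.04 for amygdala (rho -0.129) and 0.115 for hippocampus (rho 0.032), and without the 2 farthest libraries it was -0.119 and -0.208. The part of the liver markers in the *Haao* values was otherwise not tested.

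The tables list 1 of the 6 *Haao* transcripts of GENCODE M21, under another version of the gene's identifier than that release has, so its counts and per-length level are those of a gene model that can differ from it.

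*Qprt*, which turns quinolinic acid into a NAD precursor, had 15.8, 10.7, 7.5 and 5.7 normalised counts in the WT amygdala, 18.2, 24.8, 9.8 and 21.3 in *Kmt2a*-HET mice, 11.9, 9.8, 10.6 and 5.3 in *Kdm5c*-KO mice and 25.6, 12.8, 12.9 and 11.8 in DM. In the hippocampus it had 6.7, 10.5, 7.6 and 11.9 in WT mice, 8.8, 9.1, 2.8 and 12.3 in *Kmt2a*-HET mice, 15.2, 3.6, 7.9 and 5.7 in *Kdm5c*-KO mice and 5.1, 1.9, 3.5 and 2.1 in DM. The DM hippocampus had the lowest values and did not overlap WT. The log2 difference of DM from WT there was -1.55 (p-adj = 0.479), and the region difference of the DM change was -2.20 (unadjusted p = 0.00332, p-adj = 1).

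*Kynu*, the kynureninase, ranged over 0.0 to 13.4 normalised counts among the amygdala libraries and 0.0 to 4.2 among the hippocampal ones. *Aadat*, the aminotransferase that makes kynurenic acid, ranged over 0.0 to 7.6 and 0.0 to 8.7. Genotypes overlapped for both genes in both regions. No genotype difference was called for either gene.

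**Figure D4:**
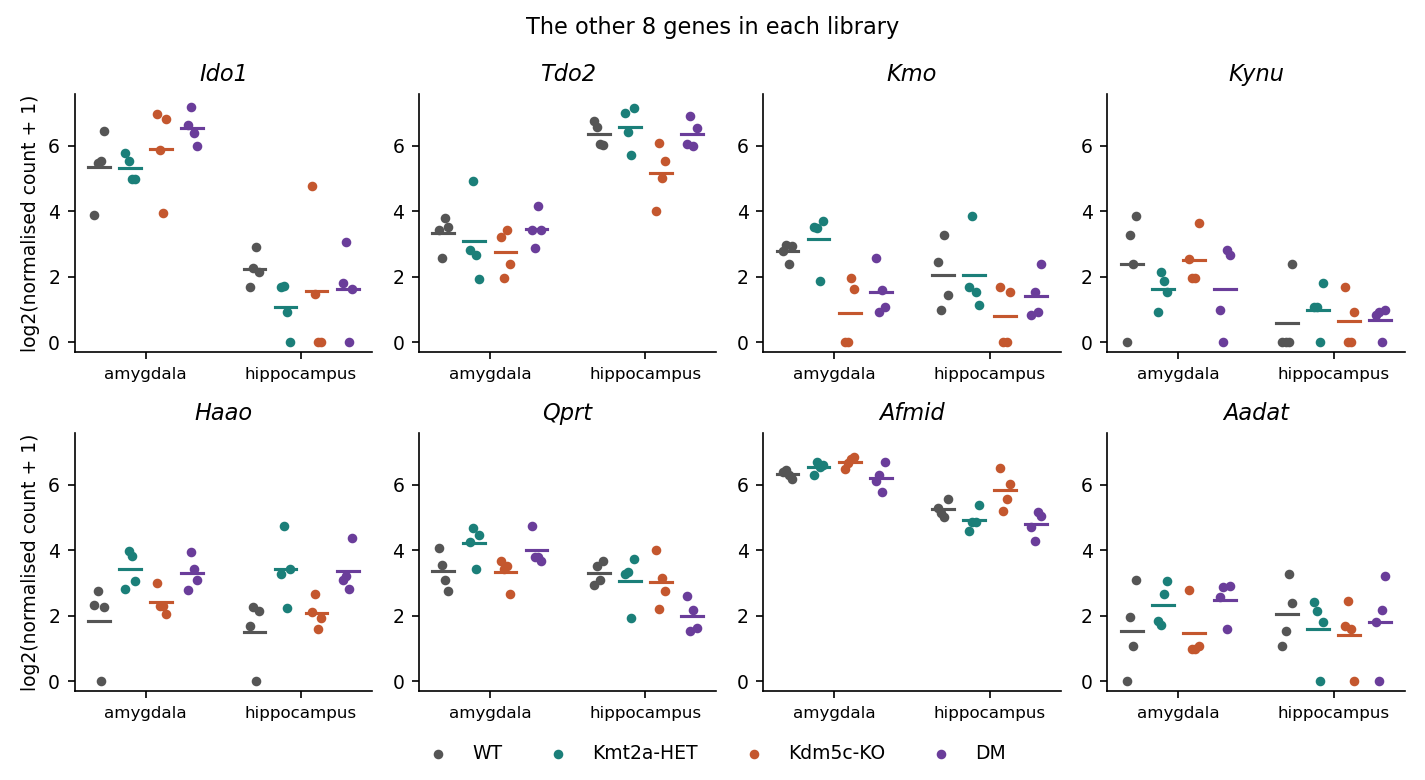
The 8 other pathway genes in each library, as log2(normalised count + 1), normalised within each region separately, by genotype and region. Dots are libraries and bars are means of 4. *Kmo* sits lower in the amygdala without *Kdm5c* (means 1.74 against 7.38 normalised counts), *Haao* higher in the genotypes with a single *Kmt2a* copy, and *Tdo2* and *Ido1* each in mainly one region.

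Each count of calls among the pathway genes other than *Ido2* is given beside the share of all genes called. Counts of 0 are near shares this small and say nothing particular to the 8 genes. In the amygdala DESeq2 called 0 of 8 in *Kdm5c*-KO against WT, where 0.751% of all genes tested were called, 0 of 8 in DM against WT (0.966%), 0 of 8 in DM against *Kmt2a*-HET (0.845%), 0 of 8 in *Kmt2a*-HET against WT (0.00329%) and 0 of 8 in DM against *Kdm5c*-KO (0.00329%). At an unadjusted p under 0.05 the genes were *Kmo* in the first, *Haao* and *Ido1* in the second, *Ido1* and *Kmo* in the third, *Haao* in the fourth and *Afmid* in the fifth, by both DESeq2 and edgeR, and edgeR also called 0 in each. Over all genes tested, DESeq2 had 5.67%, 6.75%, 6.63%, 3.05% and 2.29% under that p in the same order. In the *Kdm5c* loss comparison of the amygdala, *Kmo* and *Ido1* were the 2 genes under 0.05 (7.58% of all genes).

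In the hippocampus *Kynu* had no adjusted p in most comparisons, so 7 genes were tested there. DESeq2 called 0 of 7 in *Kdm5c*-KO against WT, where 1.01% of all genes were called, 0 of 7 in DM against WT (0.875%), 0 of 7 in DM against *Kmt2a*-HET (0.603%) and 0 of 7 in the 8 against 8 comparison of *Kdm5c* loss (2.66%). It called 0 of 8 in *Kmt2a*-HET against WT (0% of all genes by DESeq2, 715 of them at an unadjusted p under 0.05, and 0 genes by edgeR) and 0 of 8 in DM against *Kdm5c*-KO (0.0067%). The genes at an unadjusted p under 0.05 were 2, 2, 1, 2, 1 and 4 in that order: *Tdo2* and *Afmid*, *Haao* and *Qprt*, *Qprt*, *Tdo2* and *Kmo*, *Haao*, and then *Afmid*, *Tdo2*, *Haao* and *Qprt*. edgeR called 0 in each and had the same genes under 0.05. Of all genes tested, 8.15%, 7.81%, 5.03%, 9.98%, 2.4% and 4.53% were under 0.05 by DESeq2 in the same order.

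For *Kmt2a* heterozygosity, 8 libraries against 8, DESeq2 called 0 of 8 in the amygdala (0% of all genes, with 934 at an unadjusted p under 0.05, and 0 genes by edgeR) and 0 of 7 in the hippocampus (0.103%), and edgeR 0 in both. Under an unadjusted 0.05 were *Haao* and *Qprt* in the amygdala (3.08% of all genes) and *Haao*, *Afmid* and *Tdo2* in the hippocampus (8.37%). The log2 difference of *Ido2* in that comparison was 0.38 in the hippocampus, given without a test, and 0.04 in the amygdala (p-adj = 1). The change of a genotype differed between regions for 0 of the 8 genes in *Kmt2a*-HET (0.00312% of all genes called), *Kdm5c*-KO (0.00624%) and DM (0.00936%) by both tools, with *Qprt* in DM as the only one at an unadjusted p under 0.05 (2.01% of all genes).

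**Figure D5:**
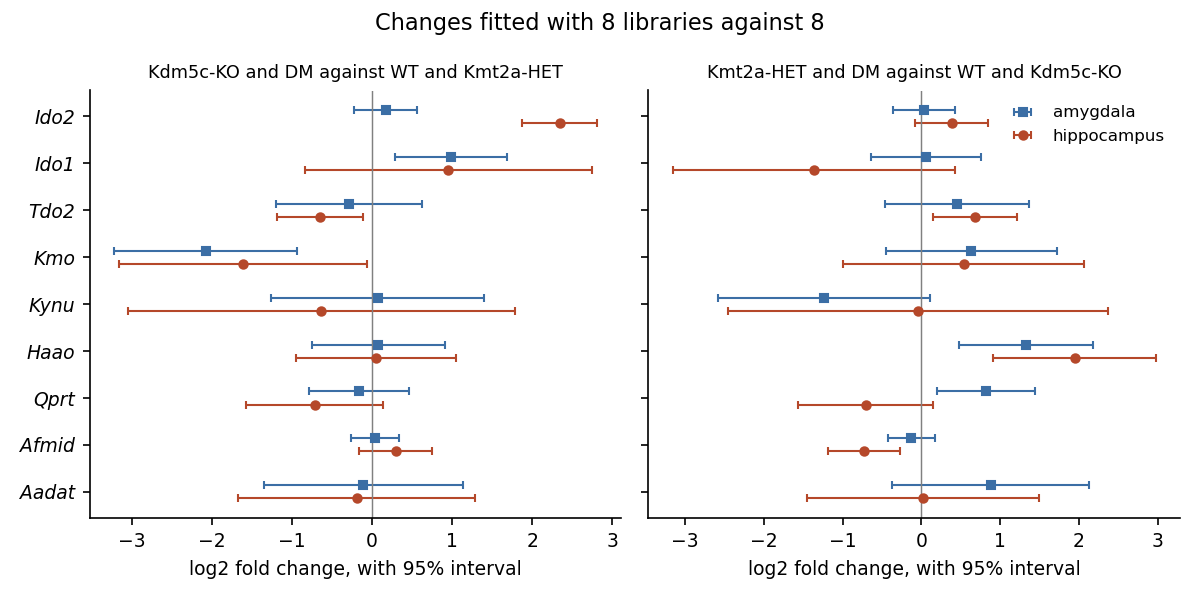
Log2 fold change with 95% interval of the 9 pathway genes, 8 libraries against 8, in the amygdala and hippocampus. Left, without against with *Kdm5c*. Right, with a single against both copies of *Kmt2a*. *Ido2* in the hippocampus stands at 2.34 on the left as a description without a test, *Kmo* in the amygdala at -2.08, and *Haao* at 1.33 and 1.94 on the right.

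The plot of 8 against 8 values shows most intervals crossing 0. Between hippocampus and amygdala, 5 of the 8 genes other than *Ido2* were called, 1 higher and 4 lower in the hippocampus, where 45.2% of all genes were, and edgeR called the same 5. *Tdo2* was higher in the hippocampus by 3.13 (log2, p-adj = 6.27e-36), in 16 of 16 mice. *Ido1* was lower there by a log2 difference of -4.09 (p-adj = 5.15e-18), and in 0 of 16 mice was it higher in the hippocampus. In WT mice alone the *Tdo2* difference was 3.22 (p-adj = 2.43e-15) and that of *Ido1* -3.48 (p-adj = 1.28e-06). In the same comparison over all mice 10 of 10 striatal markers were lower in the hippocampus (median log2 difference -3.71) and 7 of 8 dentate gyrus markers higher and 1 lower (median 1.89), against -0.01 over all genes. Their part in the *Ido1* and *Tdo2* differences was not tested.

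*Afmid* was lower in the hippocampus (-1.13, p-adj = 2.23e-17), as were *Kynu* (-2.07, p-adj = 0.00249) and *Qprt* (-0.82, p-adj = 0.00803). In WT mice alone *Afmid* was still called (-0.98, p-adj = 0.00072), *Kynu* was not (-2.48, p-adj = 0.371) and *Qprt* was at -0.01 (p-adj = 0.998). With spike-in scaling, on which the median of all genes was 0.64, *Afmid* was at -0.48 (p-adj = 0.133), *Kynu* at -1.29 (p-adj = 0.105) and *Qprt* at -0.23 (p-adj = 0.609), that is -1.12, -1.93 and -0.87 relative to that median. *Kmo*, *Haao* and *Aadat* were at -0.51, 0.04 and -0.13, and none passed.

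The region difference of *Ido2* over all mice, 1.24 on the log2 scale, is given without a test, since it holds the hippocampal libraries without *Kdm5c* for which the gene was chosen. In WT mice alone it was 0.30 (p-adj = 0.818). *Ido2* was higher in the hippocampus in 2 of 4 WT and 2 of 4 *Kmt2a*-HET mice, and in 4 of 4 *Kdm5c*-KO and 4 of 4 DM mice.

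Beyond the 9 genes, a wider list held 36 genes of tryptophan and NAD metabolism and their receptors. In 12 of the 14 genotype comparisons within a region DESeq2 and edgeR called 0 of them, where DESeq2 called 0% to 1.68% of all genes, with 0 to 5 of the list at an unadjusted p under 0.05 by either tool. DESeq2 called 1 of 35 tested in DM against WT in the amygdala, where 0.966% of all genes were called: *Inmt*, an N-methyltransferase that acts on tryptamine. It had 6.5 to 14.3 normalised counts in WT mice and 23.7 to 61.0 in DM, with no overlap, and 8.9 to 30.5 in *Kmt2a*-HET mice and 12.6 to 30.4 in *Kdm5c*-KO (log2 fold change 1.70, p-adj = 0.0416). edgeR called 0 of the list in that comparison, with 4 genes at an unadjusted p under 0.05. In the same comparison 3 of 7 choroid plexus markers were higher, 2 of them by edgeR (log2 fold changes by DESeq2: *Kl* 2.86, *Aqp1* 3.33, *Ttr* 4.99), and their summed level was 857 to 1220 in WT mice and 807 to 42373 in DM. The part of these markers in the *Inmt* difference was not tested.

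The other call of the wider list with genotype was *Maob*, monoamine oxidase B, in the hippocampus without *Kdm5c* (log2 fold change 0.48, p-adj = 0.00877), which edgeR called as well. It was 1 of 35 genes tested, a share near the 2.66% of all genes called there. *Maob* had 320.8 to 374.2 normalised counts in WT mice, 324.3 to 422.1 in *Kmt2a*-HET mice, 360.3 to 702.4 in *Kdm5c*-KO mice and 424.7 to 561.9 in DM. *Maob* is an astrocyte enzyme, and the astrocyte marker *Gfap* was also higher (0.42, p-adj = 0.0138), as 1 of 9 astrocyte markers. Of 20 interferon response genes, 1 of 19 tested was called in the hippocampus without *Kdm5c*, the immunoproteasome subunit gene *Psmb9* (0.77, p-adj = 0.0870), which edgeR did not call, against 2.66% of all genes. *Psmb9* had 11.5 to 18.7 normalised counts in WT mice, 8.6 to 26.1 in *Kmt2a*-HET mice, 18.8 to 37.9 in *Kdm5c*-KO mice and 21.3 to 43.1 in DM, so that the libraries with and without *Kdm5c* overlapped.

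Between the regions 11 of the 36 wider pathway genes were higher in the hippocampus and 10 lower, where 45.2% of all genes were called in either direction. The 4 with the smallest p-adj were *Ddc*, the aromatic amino acid decarboxylase (-1.67, p-adj = 6.68e-39), the amino acid transporter gene *Slc7a8* (0.79, p-adj = 2.28e-36), *Ahr*, the receptor that kynurenine can bind (0.91, p-adj = 3.18e-23), and *Maoa* (-0.47, p-adj = 8.41e-19).

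The 5 genes whose levels were most like *Ido2* over the 32 libraries were *Tnxb* (r = 0.847), *Cacng6* (0.832), *Dnah1* (0.813), *Pnck* (0.776) and *Gaa* (0.772). This is Pearson's r of log2(normalised count + 1) centred within each region, over 16012 genes, and it is a description: the libraries share genotype and normalisation. *Tnxb* encodes the matrix protein tenascin-X, *Cacng6* a calcium channel subunit, *Dnah1* an axonemal dynein heavy chain, *Pnck* a calmodulin-dependent kinase and *Gaa* the lysosomal alpha-glucosidase. Their log2 fold changes in the *Kdm5c*-KO and DM hippocampus were 1.55 and 1.99 for *Tnxb*, 3.57 and 4.07 for *Cacng6*, 2.23 and 2.24 for *Dnah1*, 1.37 and 1.12 for *Pnck*, and 0.80 and 0.61 for *Gaa*. In the amygdala, where *Ido2* was at 0.33 and 0.21, *Dnah1* was at 1.37 and 1.26 and the other 4 at 0.23 to 0.83.

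Apart from *Ido1* in the amygdala, the genes around *Ido2* had low levels in every group. Within 200 kb of it lie *Tcim*, *Ido1*, *Adam18*, *Adam3* and *Adam5*. In the hippocampus the mean of *Tcim*, 92908 bp away, was 7.46, 10.1, 8.08 and 7.31 normalised counts in WT mice, *Kmt2a*-HET, *Kdm5c*-KO and DM. *Adam18* (25913 bp away) was at 5.99, 5.11, 7.01 and 4.69, *Adam5* at 2.74, 2.72, 2.13 and 2.89, and *Adam3* at 0.0 to 0.9 in every hippocampal library. None of them had groups that set *Kdm5c*-KO and DM apart from WT and *Kmt2a*-HET in the way *Ido2* did in that region.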

How the data were processed

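The authors deposited expected counts per gene and per transcript for each brain region. Per the labels and the study's methods, polyadenylated RNA was sequenced with ERCC spike-in RNA, mapped to mm10 with STAR 2.5.3a and counted with Subread 1.5.0, with DESeq2 1.14.1 for calls. The estimator behind counts that are not whole (7.07% of gene values) is not given in the sources used here, and they were rounded to whole numbers.

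Genes were tested on all 16 libraries of a region with the Wald test of DESeq2 1.42.0 (R 4.3.3), with Benjamini-Hochberg adjustment over all genes tested and a threshold of 0.1. An additive fit compared 8 libraries with 8 for each mutation, and a fit over 32 libraries compared regions. edgeR 4.0.16, limma 3.58.1, other scalings, a filter (at least 10 counts in 4 libraries) and leaving out each library were alternatives. Spread is between separate mice. The fits were tested on simulated data, in which only genes with higher counts than *Kmo*, *Kynu*, *Haao*, *Qprt* or *Aadat* were changed. That test therefore does not cover changes of genes at such low counts.

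Region samples were paired by mouse, from the labels (correlation of deviations 0.0034 to 0.3403, median 0.123, 16 mice), and the block changed no region call. Region calls are counted without *Ido2*, whose level over all mice holds the values it was chosen for. Members and lists were chosen with earlier results of these data known. Named genes were the 9 members, the wider list's called genes (at most 4 per comparison), the 5 most like *Ido2* and coding genes within 200 kb. Marker genes were named as needed beside these. Coordinates are GENCODE M21.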

Additional observations from a re-analysis of the deposited data

Results flagged for a closer look

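In 8 of 72 groups of 4 libraries tested (9 genes, 8 groups), 1 library lay far from the other 3 by Dixon's criterion at the 95% level, which chance alone passes in about 1 of 20 groups. *Kdm5c*-KO hippocampus replicate 1 did so for *Ido2*, at 70.6 normalised counts against 123.4 to 129.7, and for *Ido1*, at 26.1 against 0.0 to 1.8, and it is the library with the high striatal markers. *Tdo2* was at 29.4 in *Kmt2a*-HET amygdala replicate 2 against 2.8 to 6.1. *Kmo* was at 13.6 in *Kmt2a*-HET hippocampus replicate 2 against 1.2 to 2.2, and both libraries come from the mouse with the highest liver marker sums (2072 and 3726), whose hippocampal *Haao* was also the highest, at 26.0. The part of those markers in these values was not tested. *Kynu* was at 4.2 in WT hippocampus replicate 4 against 0.0 in the others. *Haao* was at 19.8 in DM hippocampus replicate 4 against 6.1 to 8.3, and *Qprt* at 25.6 in DM amygdala replicate 1 against 11.8 to 12.9. *Aadat* was at 5.9 in *Kdm5c*-KO amygdala replicate 1 against 1.0 to 1.1.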

How the results depend on the processing

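Of 3721 alternative values of single genes, 3691 kept their side of the threshold or stayed within the spread, 8 lost a call, 13 gained one and 8 untested *Ido2* values moved. The untested *Ido2* difference between DM and *Kdm5c*-KO in the hippocampus turned from 0.78 to -0.069 with spike-in scaling, where the median of all genes was -0.72. None that was called changed sign, but 181 others that were not called had the other sign. For *Kdm5c* loss in the amygdala the count of called pathway genes other than *Ido2* was 1, and it was 0 with edgeR, 0 with spike-in scaling, 0 with the low-count filter, which drops *Kmo*, and 0 to 2 without single libraries. In *Kdm5c* loss in the hippocampus it was 0 to 1 without single libraries (*Tdo2*, p-adj = 0.0643, without *Kmt2a*-HET replicate 3), in *Kmt2a* heterozygosity in the hippocampus 0 to 2, in *Kdm5c*-KO against WT in the hippocampus 0 to 1 and in DM against *Kdm5c*-KO in the hippocampus 0 to 2. DM against *Kmt2a*-HET in the amygdala gave 1 (*Ido1*) with only those groups fitted. Of the 5 region calls without *Ido2*, 2 were left with spike-in scaling and 3 in WT mice alone (6, 3 and 3 genes past the threshold if the untested *Ido2* is counted). The cause of these shifts was not tested.

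Replicate numbers are shared between genotypes as numbers only (correlations of same-numbered libraries -0.2267 to 0.3326). A replicate block gave 1 call in *Kdm5c*-KO against WT (*Tdo2*, p-adj = 0.0998) and 1 in DM against *Kdm5c*-KO (*Afmid*, p-adj = 0.0552), both in the hippocampus. Call counts over all genes also moved with the tool, scaling, filter, threshold or samples fitted, leaving out single libraries aside: for *Kdm5c* loss from 342 to between 43 and 436 in the amygdala and from 532 to between 22 and 626 in the hippocampus, for *Kdm5c*-KO against WT in the hippocampus from 196 to between 17 and 536, and for DM against WT there from 170 to between 6 and 486. In the amygdala *Kdm5c*-KO against WT went from 144 to between 22 and 521, DM against WT from 208 to between 7 and 621 and DM against *Kmt2a*-HET from 162 to between 6 and 605. In the hippocampus DM against *Kmt2a*-HET went from 117 to between 2 and 441 and *Kmt2a* heterozygosity from 20 to between 0 and 124. *Kmt2a*-HET against WT gave 0 to 300 in the amygdala (main value 1) and 0 to 242 in the hippocampus (0), DM against *Kdm5c*-KO 0 to 371 (1) and 0 to 409 (2), and the regions 3422 to 14637 (11114). Leaving out single libraries gave 264 to 614 for *Kdm5c* loss in the amygdala (614 without WT replicate 1) and 377 to 785 in the hippocampus, and 0 to 448 for *Kmt2a* heterozygosity in the hippocampus (448 without WT replicate 2, 196 without *Kmt2a*-HET replicate 3, 156 without *Kdm5c*-KO replicate 2, 65 without DM replicate 1, and 0 to 11 without 10 others). *Kdm5c*-KO against WT in the amygdala went to 274 without WT replicate 2 and 95 without WT replicate 3, DM against WT to 110 without DM replicate 1, and DM against *Kmt2a*-HET to 268 without WT replicate 1 and to 89 to 100 without any *Kmt2a*-HET library or DM replicates 1 or 3. In the hippocampus *Kdm5c*-KO against WT went to 110 to 125 without WT replicates 2 or 4 or *Kdm5c*-KO replicates 1 or 3, DM against WT to 101 without WT replicate 4, and DM against *Kdm5c*-KO to 1 to 124 over single libraries (124 without *Kdm5c*-KO replicate 2), with 0 to 31 in the amygdala (31 without DM replicate 4). *Kmt2a*-HET against WT in the amygdala went to 88 without WT replicate 2. Counts of mostly under 10 a library limit what this depth can show for *Kmo*, *Kynu*, *Haao* and *Aadat*.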
